A study of Mus musculus with 6 samples.

Results

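Mast cells and basophils are granulocytes of allergy and of defence against parasites, and the 10 genes described here carry their best known products: the granule proteases Cpa3, Mcpt1, Mcpt2, Mcpt4, Mcpt8, Tpsb2 and Cma1, the stem cell factor receptor Kit, and Fcer1a and Ms4a2, which encode chains of the high affinity IgE receptor. They were found by matching the accession that names each array probe to a RefSeq gene symbol. All 10 genes had a probe, with 13 probes among 41006 and 10 genes among the 37104 tested, 12164 of which had a symbol. Expression was measured on 6 two-colour Agilent arrays, 3 with mesenteric lymph nodes of mice whose strain label is TB-TNF KO double (TB_TNF_KO) and 3 with nodes of B-TNF KO mice (B_TNF_KO). By these names both groups lack the cytokine TNF in B cells and only TB_TNF_KO also lacks it in T cells. All mice were naive adults, and each array held node RNA pooled over 3 mice, labelled with Cy3, beside a common Cy5-labelled RNA pool from cultured mouse cell lines. The labels name no mast cell or basophil line in that pool. No wild-type sample was analysed here, and the labels do not name the Cre driver or promoter behind either knockout.

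Mast cells mature in tissues under stem cell factor, the ligand of Kit, and store proteases bound to proteoglycan in their granules. In mice, the connective tissue type is known for Mcpt4, Cma1, Tpsb2 and Cpa3, and the mucosal type for Mcpt1 and Mcpt2. Basophils circulate in blood, enter lymph nodes in some immune responses and carry Mcpt8 and the IgE receptor. Receptor-bound IgE, once crosslinked by antigen, triggers release of the granules. Mast cells of a lymph node lie mainly in its sinuses and capsule, so that in whole-node RNA their transcripts are diluted by those of lymphocytes.

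The probes are 60 bases long. Those whose readings differed within a gene, and those of some closely related chymase genes, are shown in part or whole. Whether a probe reads only its own gene was not tested. Kit was read by 3 probes, Mcpt8 by 2 and each other member by 1. Of Kit probes 1 and 2, and of Cma1 and Mcpt8 probe 1, a stretch of 30 bases is given. Capitals mark AATAAA, the common polyadenylation signal. The letters are those in the scanner files, and no annotation of where in a transcript a probe lies was used.
Kit probe 1: gtcaggtacttaaggggccacaccattgag
Kit probe 2: ctttgtattcctaatgacttcagttagagt
Kit probe 3: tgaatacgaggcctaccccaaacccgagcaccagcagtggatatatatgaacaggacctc
Mcpt8 probe 1: tgtctgagccttAATAAAgaaatctgtctg
Mcpt8 probe 2: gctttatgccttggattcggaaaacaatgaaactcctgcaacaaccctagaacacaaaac
Mcpt1: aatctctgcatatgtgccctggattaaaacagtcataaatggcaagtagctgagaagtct
Mcpt2: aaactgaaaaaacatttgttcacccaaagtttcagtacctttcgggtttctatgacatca
Cma1: ccaccatcttcattaacctcAATAAAgacc

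AATAAA stood in 2 of the 13 whole probes as written, against 6.98% of all probes, and in 1 of the 13 on the other strand, against 3.47% of all probes. The longest run of bases that any pair of the 13 probes shared was 10. Mcpt8 probe 1 shared a run of 19 bases with 1 further probe of the array, and no other of the 13 shared a run of 16 with any probe. The chymase genes themselves are neighbours: the RefSeq table for GRCm38.p6 lists the protein-coding genes Cma1, Cma2, Mcpt1, Mcpt2, Mcpt9, Mcpt4 and Mcpt8 in that order on chromosome 14.

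The targeted gene was read first. The brighter Tnf probe had log2 ratios of node over reference RNA of -0.66, -0.63 and -0.84 on the TB_TNF_KO arrays, against 0.19, 0.36 and 0.49 on the B_TNF_KO arrays, a difference of -1.09 (SE 0.10, limma adjusted p = 0.0521), and the second probe differed by -0.26 (SE 0.056, adjusted p = 0.0991). Where these probes lie relative to the deleted part is not given in the sources used here. TB_TNF_KO arrays 1 and 2 differed from each other by 0.952 times the spread of the common reference channel, below the 1.06 to 1.59 times of the 14 other array pairs, so their mean entered the tests as 1 sample, except where the 6 arrays are said to be counted separately. Those 2 arrays also had the lowest ratios of the Y-linked gene Ddx3y, -2.06 and -1.95 against 1.25 on TB_TNF_KO array 3 and 0.052, 0.53 and 1.61 on the B_TNF_KO arrays, although only array 2 is labelled female. The median log2 ratio of 15 exocrine pancreas genes was 4.43, 4.42 and 0.0094 on the TB_TNF_KO arrays, against 2.98, 4.30 and 0.014 on the B_TNF_KO arrays. Lymph node markers were present: the medians of 4 T cell genes were 2.04 to 2.07 in TB_TNF_KO and 2.01 to 2.23 in B_TNF_KO, and those of 4 B cell genes 2.34 to 2.59 and 2.48 to 2.53. Image feature extraction fell on 2 days with 1 group each, so day and genotype cannot be told apart.

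None of the 10 mast cell and basophil genes passed the limma test between TB_TNF_KO and B_TNF_KO nodes at an adjusted p of 0.05, against 0.0135% of all genes (5 of 37104, all 5 lower in TB_TNF_KO). For 9 of the 10 genes the difference lay between -0.10 and 0.070 on the log2 scale. Their 95% confidence intervals together ran from -0.23 to 0.17, or 0.851 to 1.12 times the B_TNF_KO ratio. These intervals hold for ratios with a normexp offset of 50, which draws those of dim probes towards 0. Mcpt1, Mcpt2 and Ms4a2 read below 50 in the node channel. With an offset of 0, Ms4a2 differed by -0.23, Mcpt1 by 0.14 and Mcpt2 by 0.0035. At the offset of 50, Kit had the largest difference, -0.18 (SE 0.048), and was the only member with an unadjusted p under 0.05. Of all genes, 11.3% had such a p in the lower direction. The values were lower in TB_TNF_KO for 8 members and higher for Mcpt1 and Mcpt8, with a median difference of -0.043 against -0.011 over all genes. With that median below 0, most genes of the array also had a lower value. Of the 8, only Tpsb2, Kit and Fcer1a kept their direction in all 20 alternative settings. In whole-node RNA, fewer cells of a type and less RNA per cell cannot be told apart. With the 6 arrays counted separately and the replicate number as a block, 693 genes were called higher and 2409 lower, and with the node channel alone 288 higher and 354 lower, still with 0 members. Without TB_TNF_KO arrays 1 and 2, Kit differed by -0.16, and without array 3 of both groups it differed by -0.18. Each of these leaves TB_TNF_KO with 1 sample and called no gene on the array, so they give values and no test of the members.

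**Figure D1:**
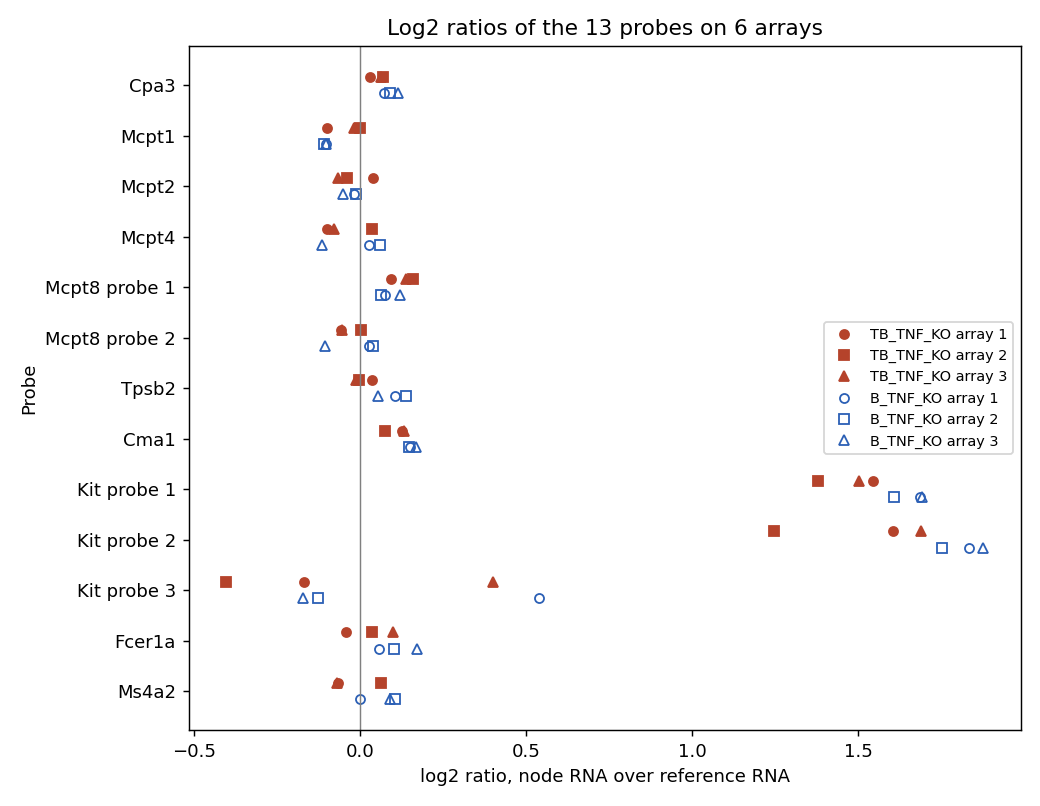
Log2 ratio of node over reference RNA (horizontal axis) for each of the 13 probes (rows), with filled red symbols for TB_TNF_KO arrays 1 to 3 and open blue symbols for B_TNF_KO arrays 1 to 3. Kit probes 1 and 2 lie between 1.25 and 1.88, Kit probe 3 spreads between -0.40 and 0.54, and the probes of the other 9 genes stay within 0.17 of 0 on every array.

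All 3 TB_TNF_KO arrays lay below all 3 B_TNF_KO arrays for 4 members, Cpa3, Tpsb2, Cma1 and Kit, where 17.1% of all genes did so. Mcpt1 was the 1 member whose TB_TNF_KO arrays all lay above, where 10.7% of all genes did. Overlap occurred for Mcpt2, Mcpt4, both Mcpt8 probes, Fcer1a, Ms4a2 and Kit probe 3.

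All 13 probes were well above local background in both channels on all 6 arrays and none was saturated, but so few probes were dim here that 40792 of 41006 passed the filter. The signals given here and below are not scaled between arrays, and the share of all probes whose signals separate the groups was not determined. The median spot read 144 to 167 in the node channel of TB_TNF_KO arrays and 159 to 203 in that of B_TNF_KO arrays, and in the reference channel 315 to 362 and 280 to 283, so the median spot of the reference channel was brighter on the TB_TNF_KO arrays, although the brighter Kitl spots were not. Each node signal was set against the 99th percentile of 314 negative control spots on the same array. The lowest such ratio of Ms4a2, the beta chain of the IgE receptor, was 1.17. It fell on B_TNF_KO array 1, where the signal was 26 and the percentile 22.2. Mcpt2 and Mcpt1 had lowest ratios of 1.31 and 1.81. For the other 10 probes the lowest ratio was 4.14 to 12.9. The background-subtracted node signal of Ms4a2 was 43, 43.4 and 20.8 in TB_TNF_KO and 26, 34.2 and 49.3 in B_TNF_KO. Mcpt2 read 33.9, 30.4 and 25.8 in TB_TNF_KO, against 29.2, 34.4 and 33.5 in B_TNF_KO. Both genes overlapped between the groups in this channel.

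**Figure D2:**
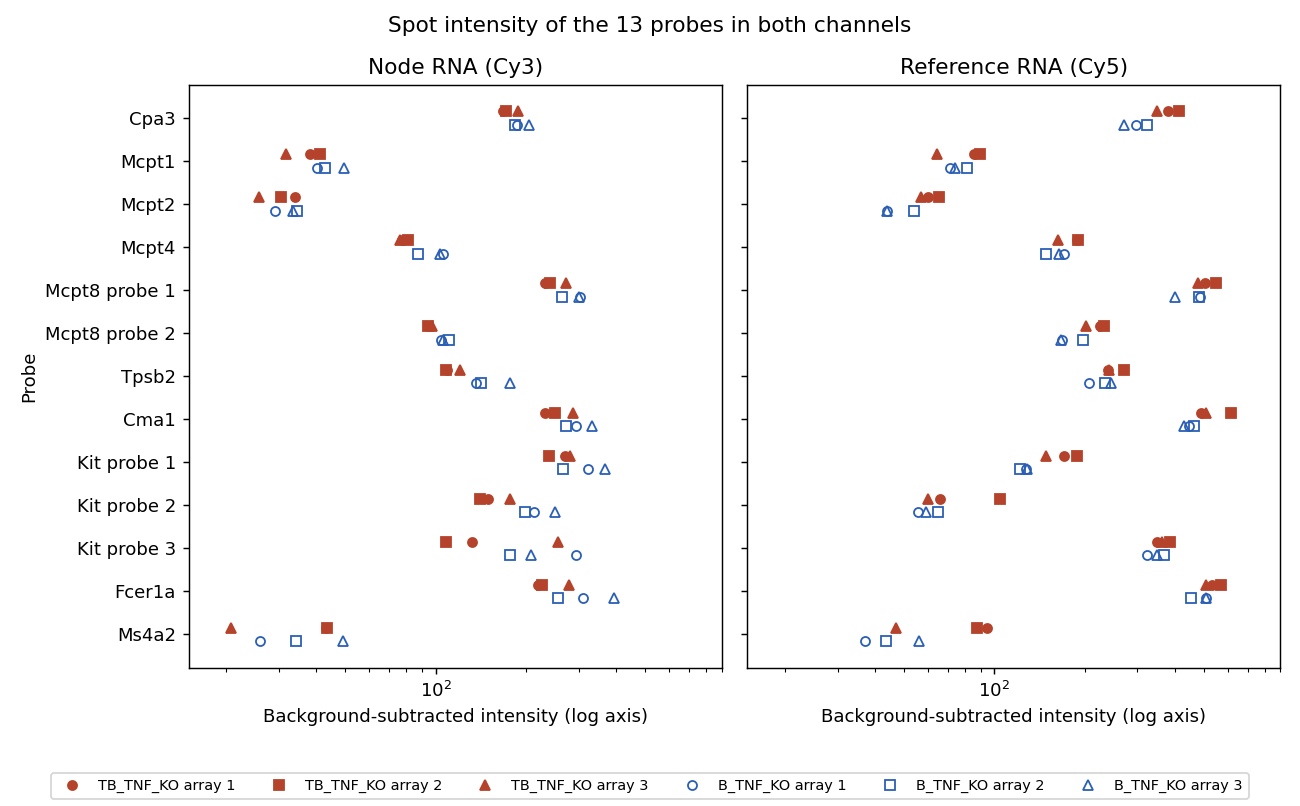
Background-subtracted spot intensity (horizontal log axes) of the 13 probes (rows), node RNA in the left panel and reference RNA in the right, with filled red symbols for TB_TNF_KO arrays and open blue symbols for B_TNF_KO arrays. Mcpt1, Mcpt2 and Ms4a2 stay below 50 in the node channel, and for Kit probe 1 the groups separate in the reference channel, where TB_TNF_KO is higher.

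Among the proteases of connective tissue mast cells, Tpsb2, a tryptase, was furthest apart. Its log2 ratios were 0.038, -0.0036 and -0.012 in TB_TNF_KO, against 0.10, 0.14 and 0.056 in B_TNF_KO, and no TB_TNF_KO array reached a B_TNF_KO array. The unscaled node signal was also lower, with 109, 109 and 121 in TB_TNF_KO and 136, 142 and 177 in B_TNF_KO. The difference in ratio of -0.097 (SE 0.046, n = 2 against 3 samples) did not pass the test (adjusted p = 0.378). With the node channel alone, scaled between arrays, it was -0.15 (limma adjusted p = 0.253).

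Cpa3, a carboxypeptidase stored in the granules of mast cells and also found in basophils, had log2 ratios of 0.031, 0.068 and 0.063 in TB_TNF_KO and 0.072, 0.091 and 0.11 in B_TNF_KO. The groups did not overlap, although the gap between the nearest arrays was small. Its node signal did overlap, at 168, 171 and 188 in TB_TNF_KO and 184, 187 and 205 in B_TNF_KO in ascending order, while its reference signal was higher in TB_TNF_KO, at 349 to 412 against 271 to 322. The reference RNA was the same pool on every array. The difference in ratio was -0.036 (SE 0.042, adjusted p = 0.747).

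Cma1, the alpha-chymase gene, gave 0.13, 0.074 and 0.13 in TB_TNF_KO, against 0.15, 0.15 and 0.17 in B_TNF_KO. Here too the ratios did not overlap, the node signals did, and the reference signals were higher in TB_TNF_KO, 489 to 614 against 428 to 463. Its difference was -0.039 (SE 0.041, adjusted p = 0.72). With the node channel alone, scaled between arrays, the differences of Cpa3 and Cma1 turned to 0.075 and 0.030, neither past the test.

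Mcpt4, a beta-chymase of connective tissue mast cells, had log2 ratios of -0.10, 0.038 and -0.078 in TB_TNF_KO and 0.029, 0.061 and -0.11 in B_TNF_KO. Array 2 was the highest in each group, and the groups overlapped. The difference was -0.047 (SE 0.064, adjusted p = 0.791). Its unscaled node signal did separate the groups, at 75.9 to 81.1 in TB_TNF_KO and 87.4 to 106 in B_TNF_KO. With the node channel alone, scaled between arrays, the difference was -0.10 (limma adjusted p = 0.477).

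The mucosal chymases did not pass. Mcpt1 had log2 ratios of -0.098, -0.00032 and -0.018 in TB_TNF_KO, against -0.10, -0.11 and -0.10 in B_TNF_KO. TB_TNF_KO array 1 lay almost on the B_TNF_KO values and the other two above them. The difference of 0.070 (SE 0.041) did not pass (adjusted p = 0.475), and the node signals overlapped, at 31.7 to 41.2 in TB_TNF_KO and 40.3 to 49.6 in B_TNF_KO. Its size depended on the processing: it was 0.20 with median centring, 0.15 with the deposited scanner ratio, 0.15 with the authors' table and 0.14 with a normexp offset of 0, and it turned to -0.032 with the node channel alone.

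Mcpt2 gave 0.039, -0.040 and -0.066 in TB_TNF_KO and -0.017, -0.010 and -0.052 in B_TNF_KO. The TB_TNF_KO arrays lay on both sides of the B_TNF_KO arrays. Its difference was -0.0068 (SE 0.045, adjusted p = 0.962), and its sign turned in 10 of 20 alternative settings.

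Mcpt8, a protease that marks basophils in mice, was read by 2 probes. Probe 1 had log2 ratios of 0.094, 0.16 and 0.14 in TB_TNF_KO, against 0.075, 0.062 and 0.12 in B_TNF_KO, a difference of 0.046 (SE 0.043, adjusted p = 0.675). Probe 2 gave -0.057, 0.0024 and -0.052 in TB_TNF_KO and 0.029, 0.041 and -0.11 in B_TNF_KO, a difference of -0.027 (SE 0.059, adjusted p = 0.874). The groups overlapped on both probes, whose differences had opposite signs. The unscaled node signals of probe 2 separated the groups, at 94.3 to 97.3 in TB_TNF_KO and 104 to 111 in B_TNF_KO. Its reference signals separated them the other way, at 202 to 232 in TB_TNF_KO and 167 to 197 in B_TNF_KO.

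The IgE receptor chains had lower mean ratios in TB_TNF_KO, within the spread of the arrays. Fcer1a, the chain that binds IgE, had log2 ratios of -0.043, 0.036 and 0.099 in TB_TNF_KO, against 0.059, 0.10 and 0.17 in B_TNF_KO. In both groups array 1 was lowest and array 3 highest, and the groups overlapped. The difference was -0.064 (SE 0.057, adjusted p = 0.66).

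Ms4a2, whose product amplifies the receptor's signal, gave -0.067, 0.064 and -0.070 in TB_TNF_KO and -0.00092, 0.11 and 0.092 in B_TNF_KO. TB_TNF_KO array 2 lay above B_TNF_KO array 1, and the other TB_TNF_KO arrays lay below all 3. The difference of -0.10 (SE 0.053) had an adjusted p of 0.424. It was -0.21 with the deposited scanner ratio and with the authors' table, -0.23 with a normexp offset of 0 and 0.044 with the node channel alone, and passed in none of these.

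Kit, the receptor tyrosine kinase on which mast cells depend and which progenitors and some innate lymphoid cells also carry, stood apart from the other 9 genes by its ratio to the reference RNA. Probe 1, tested because it was the brightest of the 3 in the node channel, had log2 ratios of 1.54, 1.38 and 1.504 in TB_TNF_KO, against 1.69, 1.61 and 1.69 in B_TNF_KO. All TB_TNF_KO arrays were lower. The group means were 1.48 ± 0.030 (SD, n = 2) and 1.66 ± 0.048 (SD, n = 3). The TB_TNF_KO ratio was thus 0.883 times the B_TNF_KO ratio (95% confidence interval 0.814 to 0.958, limma unadjusted p = 0.00974). This difference did not pass over all genes (adjusted p = 0.149).

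The 2 channels of Kit probe 1 differed in what they showed. Its node signal was 270, 239 and 281 in TB_TNF_KO and 323, 267 and 366 in B_TNF_KO, with an overlap between 267 and 281. Its reference signal, from the same RNA pool throughout, was 170, 189 and 149 in TB_TNF_KO and 127, 122 and 128 in B_TNF_KO, with no overlap. With the node channel alone the difference was -0.021 (adjusted p = 0.89), and with no background subtraction it was -0.082 (adjusted p = 0.395). The part of the reference channel in the difference was not tested beyond these values.

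Kit probe 2 ran the same way as probe 1. Its log2 ratios were 1.60, 1.25 and 1.69 in TB_TNF_KO and 1.84, 1.75 and 1.88 in B_TNF_KO, and array 2 was lowest in each group. The difference was -0.26 (SE 0.087, adjusted p = 0.219). Here the unscaled node signal separated the groups, at 150, 141 and 177 in TB_TNF_KO and 213, 199 and 250 in B_TNF_KO. The reference signals overlapped, at 60.2 to 104 and 55.5 to 64.9.

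Kit probe 3 did not follow the other two. It gave -0.17, -0.40 and 0.40 in TB_TNF_KO, against 0.54, -0.12 and -0.17 in B_TNF_KO, and arrays of one group were further apart than on probes 1 and 2. Its SDs were 0.48 in TB_TNF_KO and 0.40 in B_TNF_KO, and its difference of -0.023 had an SE of 0.28 (adjusted p = 0.98), which allows changes between 0.614 and 1.58 times. Averaging all 3 probes gave a Kit difference of -0.16 (adjusted p = 0.614).

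**Figure D3:**
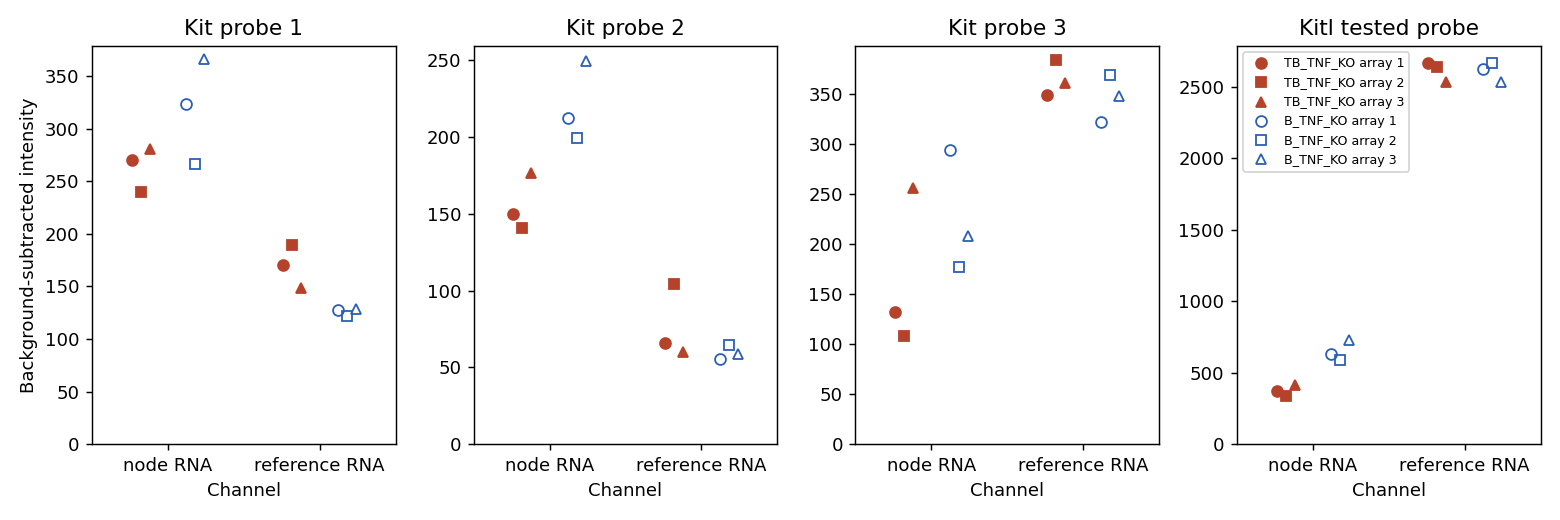
Background-subtracted intensity (vertical axes, each starting at 0) of the 3 Kit probes and the tested Kitl probe in node RNA and reference RNA, with filled red symbols for TB_TNF_KO arrays and open blue symbols for B_TNF_KO arrays. For Kitl the node signal separates the groups and the reference signal does not, whereas for Kit probe 1 the reference signal separates them.

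Against the reference RNA, Kit was the one member read as several times higher in nodes, and by 2 of its 3 probes. The mean log2 ratio of probe 1 was 1.59 (SE 0.041, n = 5 samples), or 3.01 times the reference (adjusted p = 1.17e-07), and probe 2 gave 3.29 times. Probe 3 gave 1.05 times (log2 0.072, SE 0.13, adjusted p = 0.647). Dye and RNA source cannot be told apart in this comparison, since no dye was swapped. Cma1 at 1.10 times, Mcpt8 at 1.08, Fcer1a at 1.06 and Cpa3 at 1.06 times also passed as above the reference, so that 5 members did, where 32.5% of all genes were above. Mcpt1, at 0.949 times, was the 1 member below (adjusted p = 0.0266), where 33.9% of all genes were. Mcpt2, Mcpt4, Tpsb2 and Ms4a2 did not pass. These small calls depended on single arrays. Without B_TNF_KO array 2 the members above numbered 3, and without TB_TNF_KO array 1, or any 1 of the B_TNF_KO arrays, none was below.

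Ratios so near 0 were common on these arrays. The 9 genes other than Kit stayed within 0.17 of 0 on every array, and 12788 genes, 34.5% of those tested, did the same. The median absolute mean ratio over all genes was 0.14. Over the 6 arrays, Cpa3 had an SD of 0.028, and only 4.23% of genes varied less, whereas Kit, with an SD of 0.12, varied more than 78.2% of genes. Between these lay Cma1 (SD 0.033), Mcpt2 (0.038), Mcpt8 (0.038), Mcpt1 (0.049) and Tpsb2 (0.059). Fcer1a (0.073), Mcpt4 (0.078) and Ms4a2 (0.079) were near the median SD of all genes, 0.073. These SDs hold for ratios with an offset of 50. Mcpt1, Mcpt2 and Ms4a2 read below 50 in the node channel, so the offset draws their ratios towards 0 and limits their spread.

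**Figure D4:**
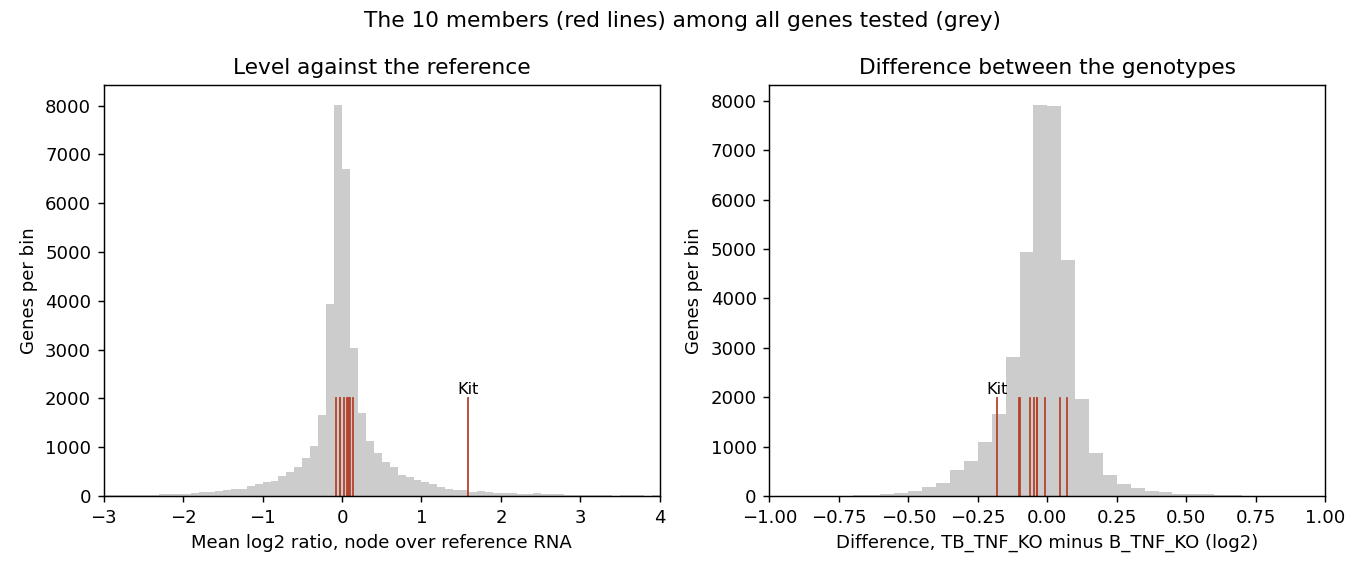
Histograms of all 37104 genes (grey, number of genes per bin) for the mean log2 ratio of node over reference RNA on the left and for the TB_TNF_KO minus B_TNF_KO difference in log2 ratio on the right, with the 10 genes as red lines. Kit lies at 1.59 on the left and at -0.18 on the right, and the other 9 lie in the centre of both distributions.

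The wider mast cell and basophil pathway was described with 5 lists of 52 genes, of which 39 were measured. None of the 39 passed the test. The values were lower in TB_TNF_KO for 23 and higher for 16, with a median difference of -0.022, and an unadjusted p under 0.05 occurred for 5 lower genes and 1 higher gene, where 11.3% of all genes had such a p in the lower direction and 5.04% in the higher, so these counts were near the background. The further proteases, of which 3 of 7 were measured, showed no such p. Their differences were 0.066 (SE 0.041) for Prss34, the mouse basophil protease mMCP-11, and 0.00097 (SE 0.042) for the tryptase gene Tpsg1. Cathepsin G, Ctsg, differed by -0.035 (SE 0.053), and its second probe by 0.031 (SE 0.11).

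Of the ligands and cytokines, all 8 were measured. Kitl, stem cell factor and thus the ligand of Kit, was the furthest from 0. Its tested probe had log2 ratios of -1.43, -1.42 and -1.48 in TB_TNF_KO, against -1.16, -1.09 and -1.13 in B_TNF_KO, so that all TB_TNF_KO arrays were lower. The node signal was 371, 336 and 415 in TB_TNF_KO and 629, 586 and 728 in B_TNF_KO, while the reference signal was 2528 to 2666 in TB_TNF_KO and 2535 to 2667 in B_TNF_KO.

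The Kitl ratio in TB_TNF_KO was 0.799 times that in B_TNF_KO, a log2 difference of -0.32 (SE 0.046, adjusted p = 0.0541), just outside the threshold. It passed with the 6 arrays counted separately (adjusted p = 0.0102, and 0.0162 with the replicate number as a block too), as it did with the node channel alone (-0.45, adjusted p = 0.0458). Its second probe went the other way, with a difference of 0.13 (SE 0.092, adjusted p = 0.568). Averaged over both probes the difference was -0.097 (adjusted p = 0.547).

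Kitl probe 1: gtgatgtgtatgtgtatatactgtatgtgt
Kitl probe 2: ttgcagtataaccgttatctcttgaaacat

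These are the first 30 bases of the Kitl probes, shown because the probes disagreed. Il4, the cytokine that basophils and helper T cells release in allergy, had a higher value in TB_TNF_KO, with ratios of 0.13, 0.19 and 0.22 against 0.055, 0.051 and 0.062 (difference 0.13, SE 0.043, adjusted p = 0.211). The other Il4 probe gave -0.22 (SE 0.13, adjusted p = 0.487). Tslp, an epithelial cytokine that acts on basophils, differed by 0.090 (SE 0.056), and Il33, the alarmin that activates mast cells, by -0.056 (SE 0.095).

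Of 21 genes of IgE receptor signalling and other receptors, 15 were measured, 10 with a lower and 5 with a higher value in TB_TNF_KO. Csf2rb2, a beta chain of the mouse IL-3 receptor, differed by -0.17 (SE 0.053, adjusted p = 0.196). Plcg2, a phospholipase of antigen receptor signalling that B cells also use, differed by -0.22 (SE 0.074, adjusted p = 0.229). Inpp5d, the lipid phosphatase SHIP1 that restrains degranulation, differed by -0.20 (SE 0.084), and Lat, an adaptor shared with T cells, by 0.11 (SE 0.045), with its second probe at -0.20. Many of these signalling genes are active in lymphocytes, and the list's median ratio was 1.58 to 1.77 in TB_TNF_KO and 1.81 to 1.94 in B_TNF_KO. The same median over the members was 0.026 to 0.051 in TB_TNF_KO and 0.065 to 0.10 in B_TNF_KO.

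Among the 6 measured of 9 genes of mediator synthesis and storage, Ltc4s, which makes leukotriene C4, had log2 ratios of 1.02, 0.97 and 0.86 in TB_TNF_KO and 1.24, 1.498 and 1.25 in B_TNF_KO. The groups did not overlap, but the separation was in the reference signal, 316 to 373 in TB_TNF_KO and 190 to 259 in B_TNF_KO, and the node signals overlapped. The difference was -0.40 (SE 0.094, adjusted p = 0.116), it passed with the 6 arrays counted separately (adjusted p = 0.0395, and 0.0297 with the replicate block too), and it was -0.022 with the node channel alone. Hdc, the histamine-forming enzyme, differed by 0.0011 (SE 0.044), and its node signal was low, 14.3 to 19.3 in TB_TNF_KO and 15.1 to 18.3 in B_TNF_KO. Hpgds, the prostaglandin D2 synthase, differed by 0.067 (SE 0.049), Tph1, which starts serotonin synthesis, by 0.059 (SE 0.051), and Srgn, the granule proteoglycan that lymphocytes also make, by 0.051 (SE 0.045).

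All 7 transcription regulators were measured. Gata2, which mast cells and basophils need, had ratios of -0.52, -0.46 and -0.54 in TB_TNF_KO, against -0.39, -0.32 and -0.35 in B_TNF_KO, without overlap. The unscaled node signal was 112 to 137 in TB_TNF_KO and 168 to 208 in B_TNF_KO. The difference in ratio of -0.16 (SE 0.045) did not pass (adjusted p = 0.157). With the node channel alone, scaled between arrays, it was -0.27 (limma adjusted p = 0.072). Gata1 differed by -0.094 (SE 0.049), Mitf, a regulator of mast cell genes, by -0.10 (SE 0.078) and Stat5a by 0.21 (SE 0.17). The second Stat5a probe went the other way, at -0.10 (SE 0.060).

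**Figure D5:**
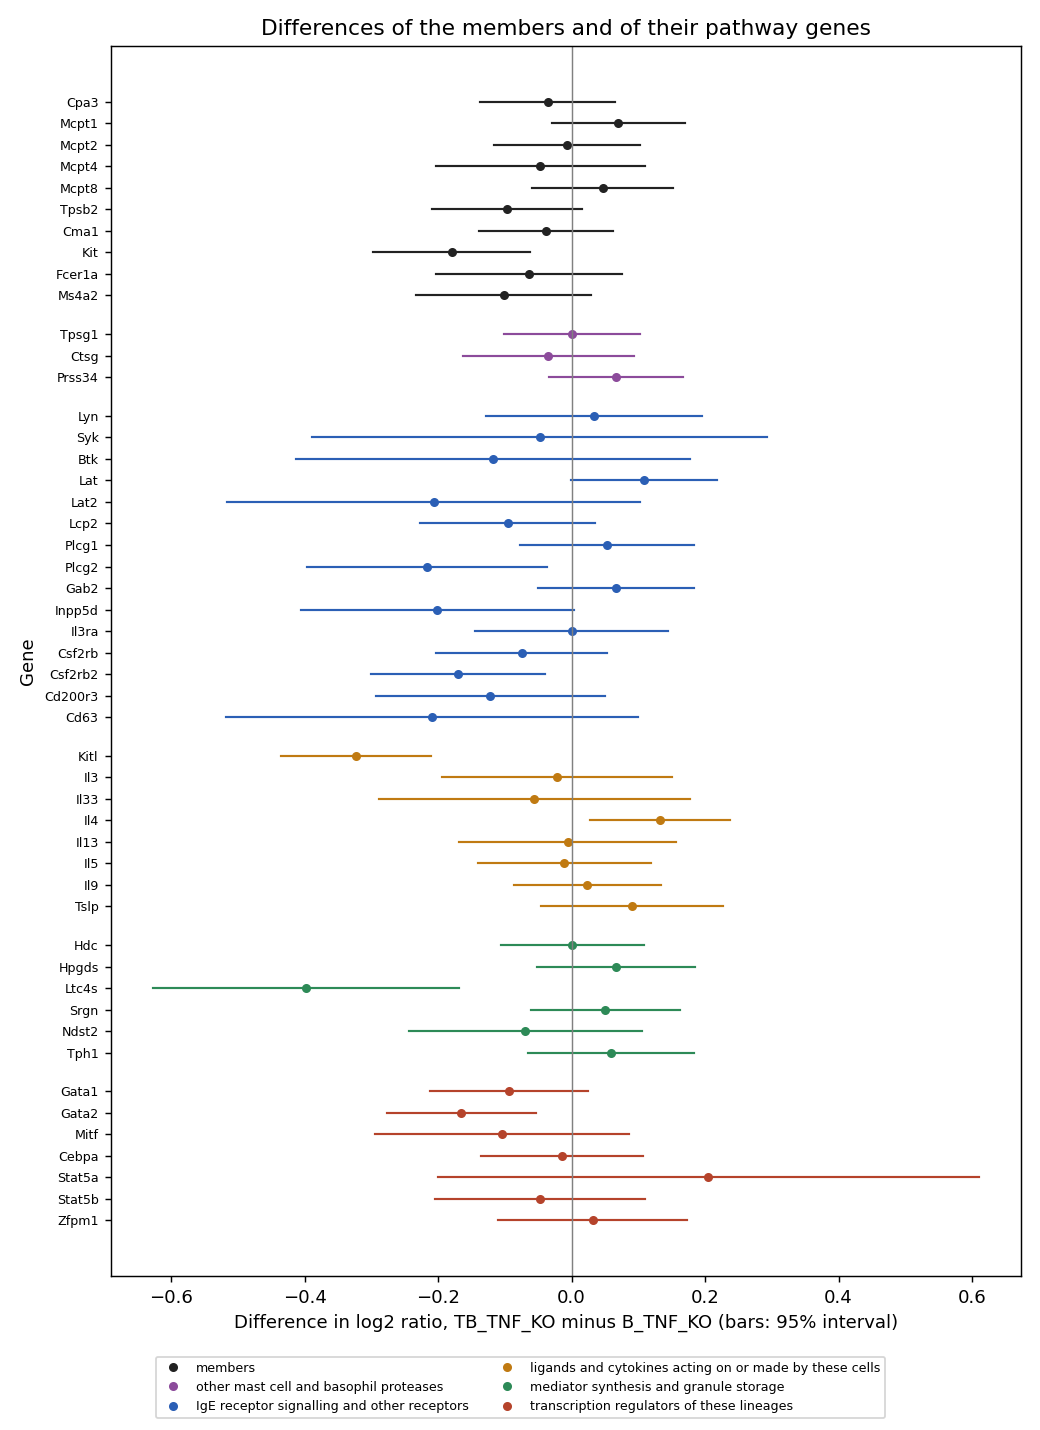
Difference in log2 ratio, TB_TNF_KO minus B_TNF_KO (horizontal axis, points with 95% confidence intervals as bars), for the 10 genes in black and for the 39 measured genes of the 5 pathway lists in colours. Most intervals include 0. Those of Kit, Kitl, Ltc4s, Plcg2, Csf2rb2 and Gata2 lie wholly to the left of it, and that of Il4 wholly to the right. None of the genes shown passed the test over all genes.

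Markers of other cells were read beside these values. No gene of the lists for eosinophils, intestinal epithelium, fat, smooth muscle and mesothelium, innate lymphoid cells, T cells or B cells passed the test. Nearest among the tested probes were the eosinophil ribonuclease gene Ear1, with a difference of -0.46 (SE 0.053, adjusted p = 0.0521, with the 6 arrays counted separately 0.0261, and 0.0174 with the replicate block too), and Cd79a of the B cell receptor, at -0.42 (SE 0.076, adjusted p = 0.0719). A second Ear1 probe differed by -0.41, and a second probe of Prg2, an eosinophil granule protein, by -0.49 (adjusted p = 0.0902), while the tested Prg2 probe differed by 0.0059. Of 8 intestinal epithelium genes, 3 had an unadjusted p under 0.05, all lower: Fabp1 at -0.42 (SE 0.14), Krt20 at -0.25 (SE 0.076) and Cdh17 at -0.23 (SE 0.068). Over all genes, 11.3% had such a p in the lower direction. Of the 8 values, 4 were lower and 4 higher in TB_TNF_KO, with a median difference of -0.028. Siglecf, on eosinophils, differed by -0.21 (SE 0.065, adjusted p = 0.188), while the granule gene Epx differed by -0.080 (SE 0.057). The node signals of Siglecf overlapped, at 98.1 to 102 in TB_TNF_KO and 94.9 to 114 in B_TNF_KO. Its separation was in the reference signal, 219 to 259 in TB_TNF_KO and 118 to 177 in B_TNF_KO. Of innate lymphoid cell genes, which bear on Kit, Il7r differed by -0.20 (SE 0.13) and Gata3 by 0.17 (SE 0.055, adjusted p = 0.199). The part of any of these cells in the Kit and Kitl values was not tested.

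Across the 6 arrays, the genes whose ratios followed Cpa3 most closely among 296 genes with an SD of at least 0.3 were Scml4 (Pearson r = 0.94), Scgb3a1 (0.85), Klk1b27 (0.85), Rwdd3 (0.84) and Syf2 (0.84). For Mcpt8 they were Steap1 (0.75), S100a8 (0.73), Cyp4a14 (0.68), Il17rb (0.68) and Baiap2l1 (0.63). These are descriptions over 6 arrays that share a reference RNA, 2 of which count as 1 sample, and Cpa3 and Mcpt8 themselves ranged over only 0.083 and 0.098 on the log2 scale.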

How the data were processed

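Per the file headers, the authors quantified the 2-colour scans with Agilent Feature Extraction. The deposited scanner files hold the intensity of each spot and of its local background in Cy3 and Cy5, and the scanner's log10 ratio, reference over sample. A further table by the authors has log10 values, which follow the processed Cy3 signal (r across probes 0.993 to 0.996, column medians 2.98 to 2.99), and their centring and background step stay unknown. The files' genome build is not given in the sources used here, so symbols come from a RefSeq table of GRCm38.p6 and no position is printed.

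Intensities were corrected with normexp (offset 50) and given a within-array loess normalisation in limma 3.58.1 (R 4.3.3), with control spots at weight 0 and 228 outlier spots left out. Ratios are log2 of sample over reference. Probes well above background in the sample channel on at least 3 arrays were kept, a gene was represented by its brightest probe, and 191 genes with a missing value were left out. Groups were compared with lmFit and eBayes and Benjamini-Hochberg adjustment over all genes, and further probes over all probes, with n = 2 TB_TNF_KO and 3 B_TNF_KO samples. The number of arrays limits the precision. Same-numbered arrays of the groups deviated together (r across genes 0.14, 0.52 and 0.62), although the labels give no reason for it, so a block fit is printed where it changes a call. The fit was tested on simulated data. Other genes were named by rule: per list up to 4 tested genes with the smallest unadjusted p, and the 5 with the highest correlation with Cpa3 and with Mcpt8. Hdc and the second Prg2 probe were added after their values were seen. A gene named by this rule is not reported here. The members, lists and rules were chosen with earlier results of these data known. Alternatives covered background, normalisation, channels, the authors' values, probe handling, filters, GC content, the block and arrays left out. The plots were made in matplotlib 3.10.9 (Python 3.11.15).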

Additional observations from a re-analysis of the deposited data

How the results depend on the processing

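No member passed the test under any of the 20 alternatives. That says little where no gene at all was called, as with no background subtraction, the authors' table, offset 0, and without TB_TNF_KO array 3, B_TNF_KO array 2, B_TNF_KO array 3, the 2 libraries lacking Y-linked signal or array 3 of both groups. The TB_TNF_KO side held 1 sample without its array 3 and in the last pair, and was assumed to vary like B_TNF_KO. Mcpt8 (higher), Tpsb2, Kit and Fcer1a (lower) kept their direction in all 20. The Kit difference ran between -0.24 and -0.021, with adjusted p between 0.0509 and 0.89. Genes called over the whole array, 0 higher and 5 lower in TB_TNF_KO (1869 and 4192 at an unadjusted p under 0.05), numbered 534 and 1716 with the 6 arrays counted separately, 693 and 2409 with the replicate block added to that, and 288 and 354 with the sample channel alone. Lower genes numbered 0 with no background subtraction, 1 with the deposited scanner log ratio, 0 with the authors' series table, 2 with the mean of all probes and, in alternatives chosen after seeing the data, 0 with offset 0, 0 without the 2 libraries lacking Y-linked signal and 0 without array 3 of both groups. Leaving out 1 array gave 0 to 9 lower genes and 0 to 3 higher genes, with 9 lower and 3 higher without TB_TNF_KO array 2, 1 lower without B_TNF_KO array 1 and 0 without TB_TNF_KO array 3, B_TNF_KO array 2 or B_TNF_KO array 3. Members above the reference then numbered 3 to 5 and members below it 0 to 1, and with a correction for probe GC 0 were below. Counting the arrays separately treats TB_TNF_KO arrays 1 and 2 as 2 samples. Kitl, Ltc4s and Ear1 passed once the arrays were counted separately, and adding the replicate block changed no call among these, the members and Gata2.

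Differences ran between -0.031 and -0.15 for Tpsb2, -0.012 and -0.12 for Fcer1a, and 0.0095 and 0.065 for Mcpt8, and some others turned sign. Mcpt2 was 0.0042 with the 6 arrays separate and with the block, 0.11 with median centring, 0.042 with the sample channel alone, 0.019 with the GC correction, 0.0035 with offset 0 and 0.013 without array 3 of both groups, and between -0.027 and 0.026 with 1 array left out. Mcpt4 was 0.0049 with median centring. With the sample channel alone Cpa3 was 0.075, Mcpt1 -0.032, Cma1 0.030 and Ms4a2 0.044. None of these passed, and the cause was not tested. Signal over background limits Mcpt1, Mcpt2 and Ms4a2 most.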
